A study of Mus musculus with 8 samples.

Results

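The genes described here are those of the SMARC, ARID and CHD families, called remodeller genes below. They were taken from the deposited count table by a rule on the mouse symbol. The symbol begins with Smarc followed by a to e, Arid followed by 1 to 5, or Chd followed by 1 to 9. The rule goes by symbol, so the name does not mean that each product remodels chromatin. The ARID3, ARID4 and ARID5 genes are described below by other roles. Pseudogenes were left out. The rule found 33 of 37224 genes, 13 SMARC, 10 ARID and 10 CHD genes. Their RNA was sequenced in 8 libraries, each made from 1 mouse MII oocyte, a mature egg that waits in meiosis for fertilisation. In 4 libraries the oocyte came from superovulated Setd1bGdf9cKO mice, a conditional knockout of Setd1b, and in the other 4 from superovulated control mice. The labels name the knockout after Gdf9, a gene of the growing oocyte whose promoter is widely used to drive Cre recombinase there. They give neither strain, age nor the exact genotype of the controls, and do not say whether the oocytes of a group came from different mice, so a p-value reflects the variation among these 8 libraries, which may in part be technical.

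As background, SWI/SNF complexes, called BAF complexes in mammals, use the energy of ATP to slide or evict nucleosomes. The canonical forms hold a SMARCA2 or SMARCA4 motor, a core of SMARCB1, SMARCC, SMARCD and SMARCE1 subunits, and an ARID1A, ARID1B or ARID2 subunit that helps to define the type of complex. The CHD proteins are motors of a related kind, and most of them carry chromodomains, which in several bind methylated histone tails. CHD1 is known as a reader of methylated lysine 4 of histone H3. Setd1b encodes a methyltransferase for that same lysine, and the comparison asked which transcripts differ in mature eggs from its conditional knockout. In mouse oocytes SMARCA4 is known as a maternal factor for activation of the embryonic genome.

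Setd1b itself (chromosome 5, 123142193 to 123167435, build mm10) had 4.42, 5.05, 2.96 and 3.54 CPM in knockout replicates 1 to 4, against 10.7, 12.8, 9.22 and 10.9 CPM in control replicates 1 to 4. CPM here are counts scaled to a common library total and by a composition factor (TMM). All 4 knockout libraries lay below all control libraries, and the log2 fold change was -1.44 ± 0.41 (SE, adjusted p = 0.0221 in edgeR's quasi-likelihood test). Every log2 fold change is given as knockout over control. The Setd1b call was lost without knockout replicate 3 (adjusted p = 0.0519) and without control replicate 2 (adjusted p = 0.0540). It was also lost with the replicate number as a block (adjusted p = 0.0700) and with library totals as sole scaling (adjusted p = 0.0887), in a range that began at 0.00166. Library totals ran from 9488899 to 11313502 counts in knockout and from 11029602 to 13519404 counts in control libraries. Genes with at least 10 counts numbered 11190 to 12153 in knockout and 9913 to 10714 in control libraries. The TMM factors were 1.07 to 1.22 in knockout and 0.80 to 0.95 in control libraries. In both measures the groups did not overlap, so these differences cannot be told apart from genotype here. All 15 oocyte markers that were listed, Zp1, Zp2, Zp3, Gdf9 and Bmp15 among them, were detected, with a summed level of 16859 to 22389 CPM in knockout and 17588 to 23463 CPM in control libraries. Single oocyte markers did change, since 6 of the 15 rose and 2 fell, with log2 fold changes of 3.02 for Zp2, 2.52 for Padi6 and -1.43 for Oosp1. Of 28 markers of cumulus and granulosa cells, 7 were abundant enough to test, and 3 of these fell (Rgs2, Esr2 and Cyp19a1). Their sum ran from 947 to 1260 CPM in knockout and from 1836 to 2491 CPM in control libraries, and Rgs2 made up most of it, at 994 CPM in knockout and 1969 CPM in control oocytes on average. Esr2 averaged 63.0 CPM in knockout and 110 CPM in control oocytes, and Cyp19a1 49.2 CPM in knockout and 88.6 CPM in control oocytes. Of the 28, 12 had no count in any library. These were Amh, Amhr2, Areg, Cd44, Ereg, Foxl2, Inha, Inhbb, Lhcgr, Pgr, Ptx3 and Tnfaip6. Of 17 matched markers of blood, stroma and oviduct, 10 had no count, Cd68 rose, and Epcam and Pecam1 fell, with a sum of 33.2 to 56.7 CPM in knockout and 95.5 to 123 CPM in control libraries. The part of these markers in the results below was not tested.

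Of the 33 remodeller genes, 27 had enough counts to be tested, and 10 of them (37.0%) passed an adjusted p of 0.05, against 25.8% of all 11066 tested genes. The 3 that rose were Smarcb1, Smarcd2 and Smarcal1, and the 7 that fell were Arid5b, Chd9, Arid3b, Arid1a, Arid2, Smarca5 and Smarcad1. Among all tested genes, 13.6% rose and 12.2% fell. In the ARID family 0 of 8 tested genes rose and 4 fell, in the CHD family 0 of 9 rose and 1 fell, and in the SMARC family 3 of 10 rose and 2 fell. For the ARID and CHD families the count of rises was also 0 at an unadjusted p under 0.05 in edgeR. It was 0 as well at an adjusted p under 0.05 in DESeq2 and in limma's voom. Over tested genes the median log2 fold change was -0.64 in the ARID, -0.45 in the CHD and 0.15 in the SMARC family, beside 0.10 for all tested genes. In 10 of the 27 genes no knockout value fell within the control range or the reverse, against 31.3% of all tested genes, 2 with all knockout libraries above and 8 with all knockout libraries below, where all tested genes gave 17.7% above and 13.6% below. A lower level can come from fewer transcripts of a gene or from more of other genes, since the values are relative to each library.

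**Figure D1:**
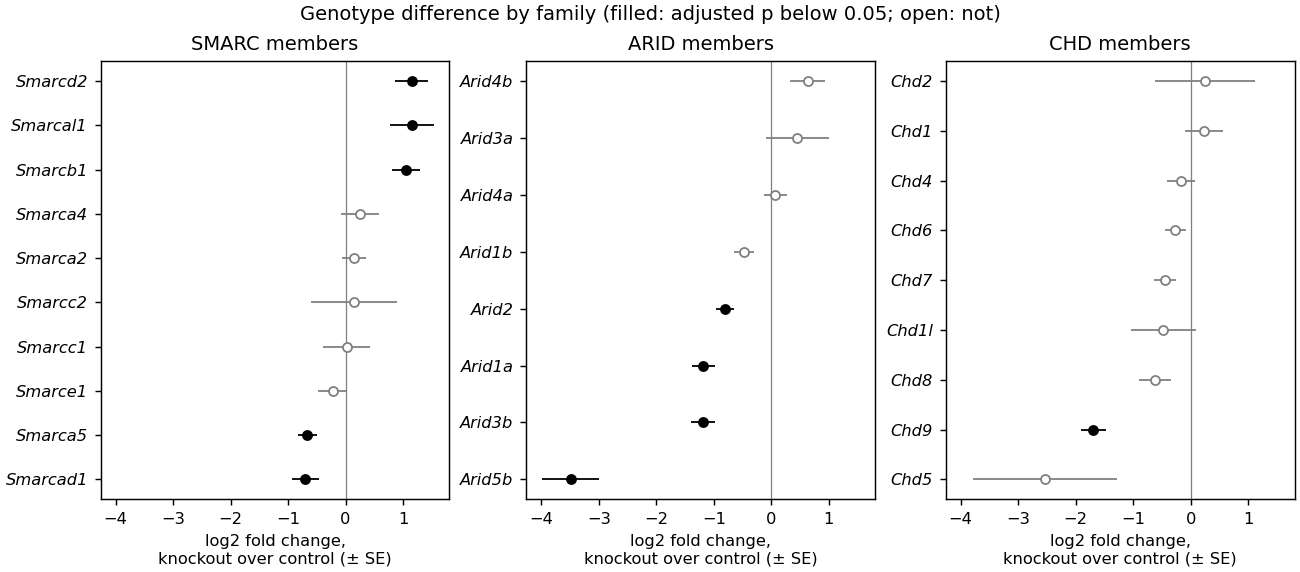
Log2 fold change of knockout over control (horizontal axis, with SE) for the 27 tested genes, by family; filled points passed an adjusted p of 0.05. Of the ARID genes 4 fell and 0 rose, of the CHD genes Chd9 fell, and the SMARC genes lay on both sides of 0.

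The promoters of 3 of these genes are shown because they belong to the ARID and CHD genes with the largest falls among those that passed the test, Arid5b and Chd9, and to a core SWI/SNF gene that rose, Smarcb1. SETD1 complexes are known to be brought to CpG islands by a subunit that binds unmethylated CG dinucleotides. Each window runs from 250 bases before to 50 bases after the start of the gene, from RefSeq on GRCm38.p6, written 5′ to 3′ on the strand of the gene with every CG in capitals. The windows are chr10:68278677-68278976 on the minus strand for Arid5b, chr8:90828585-90828884 on the plus strand for Chd9, and chr10:75921565-75921864 on the minus strand for Smarcb1.
Arid5b: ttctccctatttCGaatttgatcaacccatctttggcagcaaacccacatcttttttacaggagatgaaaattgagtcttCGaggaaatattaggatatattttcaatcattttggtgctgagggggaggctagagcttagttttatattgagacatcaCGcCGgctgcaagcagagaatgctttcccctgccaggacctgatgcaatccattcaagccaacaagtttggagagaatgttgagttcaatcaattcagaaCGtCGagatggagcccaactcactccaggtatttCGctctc
Chd9: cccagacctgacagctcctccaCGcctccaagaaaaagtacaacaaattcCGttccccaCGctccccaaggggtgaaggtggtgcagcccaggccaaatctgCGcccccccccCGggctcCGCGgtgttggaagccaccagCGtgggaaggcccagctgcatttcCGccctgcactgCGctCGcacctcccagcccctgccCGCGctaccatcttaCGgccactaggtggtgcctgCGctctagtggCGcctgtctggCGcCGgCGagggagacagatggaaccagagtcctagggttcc
Smarcb1: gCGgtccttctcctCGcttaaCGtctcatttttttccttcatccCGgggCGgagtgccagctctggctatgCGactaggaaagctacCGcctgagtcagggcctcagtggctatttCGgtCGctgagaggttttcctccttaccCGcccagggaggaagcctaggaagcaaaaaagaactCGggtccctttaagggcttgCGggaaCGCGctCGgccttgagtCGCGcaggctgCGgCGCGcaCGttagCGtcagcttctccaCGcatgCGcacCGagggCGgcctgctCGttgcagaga
The Arid5b window held 7 CG, the Chd9 window 19 and the Smarcb1 window 27. A window whose start lay within 100 bases of the counted 5′ end was found for 20 of the 33 genes, and these held from 7 to 48 CG with a median of 26. Arid5b had the fewest of the 20, equal to the median of 7 over all 32851 windows, of which 94.6% held at least 1 CG. The median was 20.5 CG for the 6 matched genes that fell, 20 for the 2 that rose and 30.5 for the 8 that were tested and did not pass. The motif CG reads the same on both strands, and its count describes the letters only.

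Among the motors of the SWI/SNF complexes, neither Smarca2 nor Smarca4 passed the test as reported. Smarca2, which encodes the motor BRM, was at 104, 115, 132 and 141 CPM in knockout replicates 1 to 4, against 129, 89.9, 84.8 and 139 CPM in control replicates 1 to 4. Smarca4, which encodes the motor BRG1, was at 37.9, 29.7, 16.2 and 25.1 CPM in knockout and 14.3, 30.1, 26.4 and 20.4 CPM in control libraries. For both genes the groups overlapped, with log2 fold changes of 0.15 ± 0.21 for Smarca2 and 0.26 ± 0.33 for Smarca4 (SE; adjusted p = 0.624 and 0.607). Smarca2 passed with scaling by library totals alone (0.56 on the log2 scale, adjusted p = 0.0356, in a range up to 0.909). On that scaling 4 of the 10 tested SMARC genes were higher and 0 lower. Of all 11066 tested genes, 2377 were then higher and 510 lower. Per kilobase of exon, Smarca2 was the more abundant of the pair, at 15.7 CPM per kb in knockout and 14.1 CPM per kb in control oocytes, while Smarca4 was at 4.20 CPM per kb in knockout and 3.52 CPM per kb in control oocytes. The share of Smarca4 in the summed per-length level of the pair was 21.3 ± 7.65% in knockout and 20.8 ± 8.58% in control libraries (SD, n = 4).

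The ISWI motor Smarca5 and the related motor Smarcad1 fell. Smarca5, which encodes SNF2H, a motor that spaces nucleosomes evenly, was at 202, 224, 294 and 270 CPM in knockout and 408, 353, 359 and 447 CPM in control replicates 1 to 4. All knockout libraries lay below all control libraries, and the log2 fold change was -0.66 ± 0.17 (adjusted p = 0.0146). Smarcad1, whose product helps to restore silent chromatin after replication, was at 92.2, 94.4, 157 and 137 CPM in knockout and 180, 176, 159 and 267 CPM in control libraries. Its groups came close to touching, at 157 CPM in knockout replicate 3 and 159 CPM in control replicate 3, and the log2 fold change was -0.70 ± 0.23 (adjusted p = 0.0438). The call of Smarca5 was lost without knockout replicate 2 (adjusted p = 0.0571) and with scaling by library totals alone (adjusted p = 0.177), in a range of 0.00123 to 0.177 over its alternatives. The call of Smarcad1 was lost on leaving out any of the libraries except knockout replicate 3 and control replicate 3. It was also lost with scaling by library totals alone (adjusted p = 0.283, the highest of a range that began at 0.0138). Smarca1, the SNF2L motor and paralog of Smarca5, had 0 counts in the knockout libraries and 10 counts in control replicate 2 alone, so nearly all of the per-length ISWI motor level was Smarca5.

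Smarcal1, which encodes a DNA annealing enzyme that acts at stalled replication forks, was at 22.7, 26.2, 12.5 and 24.0 CPM in knockout and 6.05, 15.01, 9.80 and 7.50 CPM in control libraries. Knockout replicate 3 lay below control replicate 2, so the groups overlapped, although the test was passed (log2 fold change 1.15 ± 0.38, adjusted p = 0.0436). The call was lost on leaving out any of the libraries except knockout replicate 3 and control replicate 2, and with the trend on gene length taken out of each library, with adjusted p-values from 0.0181 to 0.126 over its alternatives.

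Of the core SWI/SNF subunits, Smarcb1 and Smarcd2 rose and the others did not pass. Smarcb1 (chromosome 10, 75896769 to 75921617) encodes the subunit SNF5, which contacts the nucleosome. It was at 83.8, 56.5, 69.3 and 77.8 CPM in knockout replicates 1 to 4, against 47.5, 36.6, 30.6 and 24.0 CPM in control replicates 1 to 4. All knockout libraries were above all control libraries, and the log2 fold change was 1.05 ± 0.25 (adjusted p = 0.00982). Smarcd2 (chromosome 11, 106263179 to 106272972), which encodes a BAF60 subunit, was at 193, 134, 106 and 132 CPM in knockout and 32.1, 78.1, 65.3 and 78.4 CPM in control libraries. Its groups did not overlap either, control replicate 1 was the lowest library, and the log2 fold change was 1.15 ± 0.29 (adjusted p = 0.0123). Both calls held in all 17 alternative fits, with adjusted p-values up to 0.0350 for Smarcb1 and up to 0.0492 for Smarcd2. The lowest log2 fold changes were 0.91 for Smarcb1 and 0.79 for Smarcd2.

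The 3 BAF60 genes were unequal in these oocytes. Smarcd2 made up nearly all of their level, while Smarcd1 had 4 counts over the knockout libraries and 0 over the control libraries, and Smarcd3 had 0 counts in all 8 libraries. Of the exon bases of Smarcd3, 54.3% overlap Chpf2 and Mir671 on the other strand, and reads that touch both genes would not have been counted without a strand setting, so the 0 covers the remaining bases only. Among the scaffold subunits, Smarcc1 (BAF155) was at 7.99 ± 2.61 CPM in knockout and 7.89 ± 0.535 CPM in control oocytes (SD, n = 4), and Smarcc2 (BAF170) at 2.07 ± 0.913 CPM in knockout and 1.87 ± 1.22 CPM in control oocytes. Smarce1 (BAF57), a DNA-binding subunit of the core, was at 25.3 ± 3.22 CPM in knockout and 29.5 ± 6.5 CPM in control oocytes. None of these 3 passed, with log2 fold changes of 0.02 ± 0.40 for Smarcc1, 0.15 ± 0.75 for Smarcc2 and -0.22 ± 0.25 for Smarce1 (SE).

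In the ARID family Arid1a and Arid2, which encode subunits that define the BAF and PBAF complexes, both fell. Arid1a (chromosome 4, 133679008 to 133756769), which encodes the subunit of the canonical BAF complex, was at 292, 304, 346 and 365 CPM in knockout replicates 1 to 4, against 662, 948, 851 and 505 CPM in control replicates 1 to 4. The knockout libraries lay close together and below every control library, while control replicates 2 and 3 stood above control replicates 1 and 4. The log2 fold change was -1.18 ± 0.20 (adjusted p = 0.00177). Per kilobase, Arid1a was at 28.5 CPM in knockout and 64.6 CPM in control oocytes.

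Arid2 (chromosome 15, 96287518 to 96404992), which encodes the subunit of the PBAF complex, was at 219, 235, 270 and 249 CPM in knockout and 395, 391, 514 and 399 CPM in control libraries. The groups did not overlap, and the log2 fold change was -0.80 ± 0.16 (adjusted p = 0.00376). With scaling by library totals alone the call was lost (adjusted p = 0.0748, the highest of a range that began at 7.13e-06). Arid1b, the paralog of Arid1a, was at 188, 234, 297 and 259 CPM in knockout and 321, 301, 345 and 389 CPM in control libraries. Every knockout library of Arid1b was below every control library, but the test was not passed (log2 fold change -0.47 ± 0.18, adjusted p = 0.0677). It was passed without knockout replicate 3 (adjusted p = 0.0451), in DESeq2 and in voom, in a range of 0.0297 to 0.716. The share of Arid1a in the per-length level of Arid1a and Arid1b was 63.1, 58.8, 56.2 and 60.8% in knockout libraries and 69.4, 77.6, 73.0 and 58.7% in control libraries. Control replicate 4 lay within the knockout range, and the other 3 control libraries were above it.

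Arid5b showed the largest fall among the tested genes of the SMARC, ARID and CHD families. The gene (chromosome 10, 68095593 to 68278726) encodes a DNA-binding partner of the histone demethylase PHF2. It was at 16.3, 31.9, 4.31 and 17.5 CPM in knockout replicates 1 to 4, against 196, 237, 102 and 255 CPM in control replicates 1 to 4. Replicate 3 was the lowest library in both groups, and the highest knockout library was still below the lowest control library. The log2 fold change was -3.49 ± 0.50 (adjusted p = 0.000599), and it lay between -3.95 and -3.06 in all 17 alternative fits. For Arid5b the authors' deposited table holds -3.54 as its unshrunken log2 fold change. Its paralog Arid5a had counts of 9 and 37 in knockout replicates 1 and 2 and 0 in the other 6 libraries, and was too low to be tested.

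The ARID3 genes differed from each other. Arid3b (chromosome 9, 57790353 to 57836793), which encodes a DNA-binding protein of the BRIGHT type, was at 21.7, 23.5, 19.8 and 23.2 CPM in knockout and 44.9, 53.2, 47.3 and 55.8 CPM in control libraries. The groups were tight and apart, and the log2 fold change was -1.19 ± 0.21 (adjusted p = 0.00228). Arid3a, which encodes BRIGHT itself, was at 6.73 ± 1.42 CPM in knockout and 4.91 ± 3.57 CPM in control oocytes (SD, n = 4) and did not pass (0.45 ± 0.55 on the log2 scale, SE). Arid3c had 23 counts in the knockout libraries, 19 of them in replicate 2, and 2 in the control libraries, and was not tested.

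The ARID4 genes, which encode partners of the SIN3 histone deacetylase complex, did not pass. Arid4a was at 59.2 ± 11.4 CPM in knockout and 56.5 ± 1.04 CPM in control oocytes, with a log2 fold change of 0.07 ± 0.20. Arid4b was at 34.7 ± 9.38 CPM in knockout and 22.4 ± 6.69 CPM in control oocytes, and the log2 fold change was 0.63 ± 0.30 (adjusted p = 0.146). Arid4b passed only in the fit with library totals as the scaling (adjusted p = 0.0449, in a range up to 0.313).

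**Figure D2:**
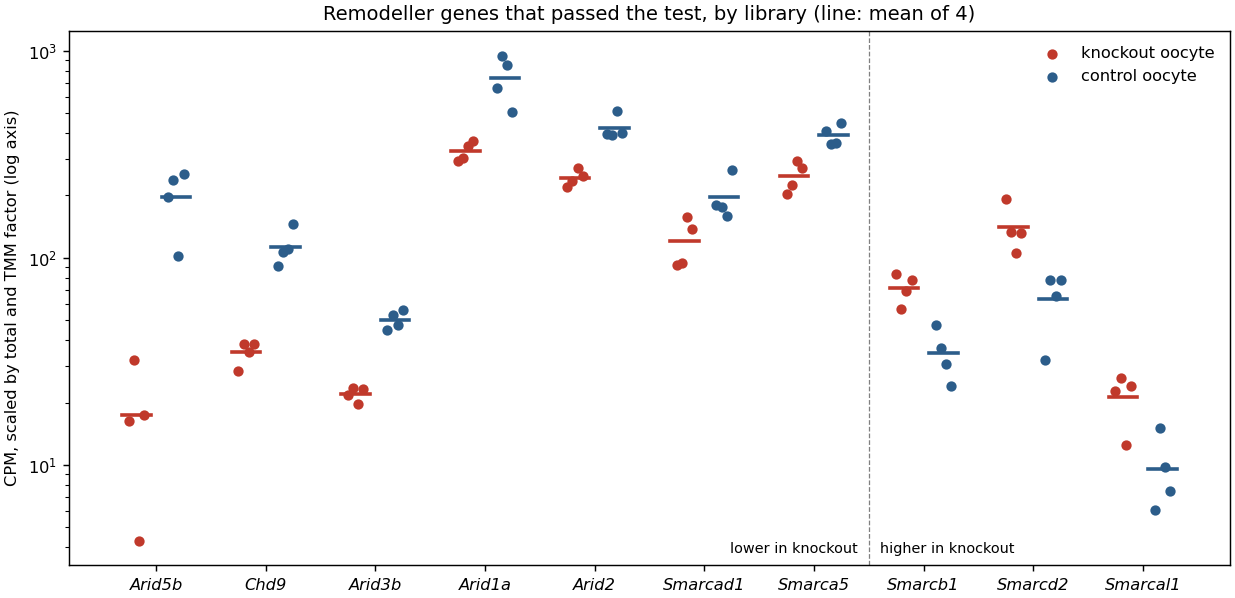
CPM by library (log axis) for the 10 remodeller genes that passed the test; each point is 1 oocyte, knockout left of control, and lines are means of 4. Arid5b showed the widest gap, and in Smarcal1 the groups overlapped.

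In the CHD family Chd9 fell and 8 tested genes did not pass. Chd9 (chromosome 8, 90828835 to 91054508), which encodes a large motor of the subfamily of CHD6 to CHD9, was at 28.5, 38.3, 35.02 and 38.5 CPM in knockout replicates 1 to 4, against 90.8, 106, 110 and 145 CPM in control replicates 1 to 4. The highest knockout library was far below the lowest control library, and the log2 fold change was -1.69 ± 0.21 (adjusted p = 0.000291). The other members of that subfamily were at lower values in knockout oocytes without passing. Chd8, known for restraining beta-catenin target genes, was at 114, 100, 85.5 and 134 CPM in knockout and 103, 234, 211 and 116 CPM in control libraries, and the log2 fold change was -0.62 ± 0.27 (adjusted p = 0.118). Control replicates 2 and 3 were high and control replicates 1 and 4 lay within the knockout range. Chd7, the gene mutated in CHARGE syndrome, was at 189, 150, 158 and 132 CPM in knockout and 211, 219, 266 and 162 CPM in control libraries, and the log2 fold change was -0.45 ± 0.19 (adjusted p = 0.107). Chd8 passed without control replicate 1 (adjusted p = 0.0473, in a range up to 0.584), and Chd7 without control replicate 4 (adjusted p = 0.0428, in a range up to 0.857). Chd6 was at 77.6 ± 11.6 CPM in knockout and 93.6 ± 8.26 CPM in control oocytes (log2 fold change -0.27 ± 0.18).

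Chd4, which encodes the Mi-2 beta motor of the NuRD deacetylase complex, was at 151, 118, 119 and 111 CPM in knockout and 120, 177, 178 and 85.4 CPM in control libraries. The control libraries spread to both sides of the knockout libraries, and the log2 fold change was -0.17 ± 0.24 (adjusted p = 0.637). Chd4 held 99.3 ± 0.304% of the summed per-length level of Chd3, Chd4 and Chd5 in knockout and 98.9 ± 0.303% in control libraries (SD, n = 4). Chd3 had 36 counts over the knockout libraries and 4 over the control libraries and was not tested. Chd5 had 17 counts in the knockout libraries, 16 of them in replicate 2, and 90 in the control libraries. Its log2 fold change of -2.53 ± 1.25 did not pass (adjusted p = 0.161), and without knockout replicate 2 it was -5.61 (adjusted p = 0.0248, in a range up to 0.309).

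Chd1, the reader of methylated lysine 4 of histone H3, was at 24.5, 24.9, 24.1 and 26.6 CPM in knockout and 21.6, 9.42, 27.4 and 26.7 CPM in control libraries. The knockout values were close together, control replicate 2 was low, and the log2 fold change was 0.24 ± 0.33 (adjusted p = 0.639). Chd2, its paralog, was at 4.11 ± 2.59 CPM in knockout and 3.47 ± 3.29 CPM in control oocytes (0.25 ± 0.87 on the log2 scale). Chd1l, which encodes the poly(ADP-ribose)-activated remodeller ALC1, was at 3.94 ± 2.43 CPM in knockout and 5.49 ± 1.54 CPM in control oocytes (-0.47 ± 0.56 on the log2 scale). Neither passed, and both rested on few counts.

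Summed over their members, the ARID genes stood at 845, 918, 1038 and 1024 CPM in knockout replicates 1 to 4, against 1697, 2027, 1942 and 1680 CPM in control replicates 1 to 4. Every knockout library was well below every control library, and Arid1a, Arid1b and Arid2 carried most of the sum in both groups. The CHD sum was 597, 531, 510 and 510 CPM in knockout and 637, 858, 903 and 640 CPM in control libraries, again with control replicates 2 and 3 above the others. The SMARC sum was 788 ± 61.2 CPM in knockout and 868 ± 105 CPM in control oocytes (SD, n = 4), with overlapping groups.

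**Figure D3:**
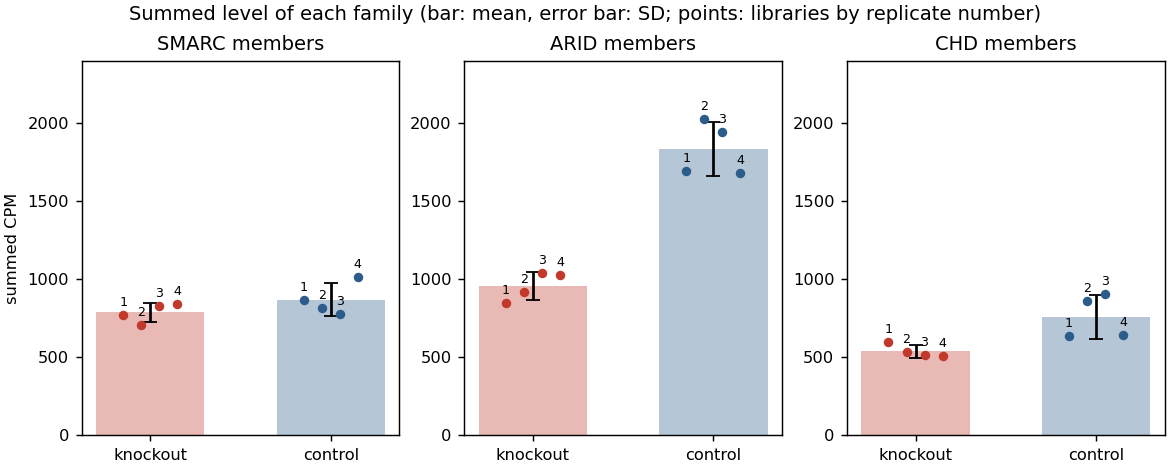
Summed CPM of the SMARC, ARID and CHD genes (bars are means of 4 libraries, error bars SD, points single libraries with their replicate number). The ARID sum averaged 956 CPM in knockout and 1837 CPM in control oocytes, and the CHD sum 537 CPM in knockout and 759 CPM in control oocytes. Over all tested genes the sum averaged 870582 CPM in knockout and 1.148e+06 CPM in control oocytes.

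The control libraries also differed among themselves in several members. Control replicates 2 and 3 were both above control replicates 1 and 4 in 11 of the 27 tested genes (40.7%), against 22.7% of all tested genes. The 11 were Arid1a, Arid3a, Arid4b, Chd4, Chd5, Chd6, Chd7, Chd8, Smarca4, Smarcal1 and Smarcc1, so 5 of the 9 tested CHD genes were among them. This split was noticed in the values and is a description only.

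The size of these differences depended on scaling. Scaling by library totals alone moved the median over all tested genes by 0.39 on the log2 scale, and with the trend on gene length taken out of each library it moved by -0.32. The counts for all genes were then 2377 higher and 510 lower with totals, and 1018 higher and 2331 lower with the trend removed, in place of 1503 higher and 1347 lower. The remodeller genes are long, with a median exon length of 7930 bases in the 27 tested, against 3580 bases for all tested genes. Relative to the median of all genes, the ARID median was -0.74 as reported, -0.74 with totals and -0.40 with the trend removed. The CHD median was -0.55, -0.55 and -0.16 on the same 3 scalings, and the SMARC median 0.05, 0.06 and 0.18. The calls of Arid1a, Arid3b, Arid5b, Chd9, Smarcb1 and Smarcd2 held under all 3.

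**Figure D4:**
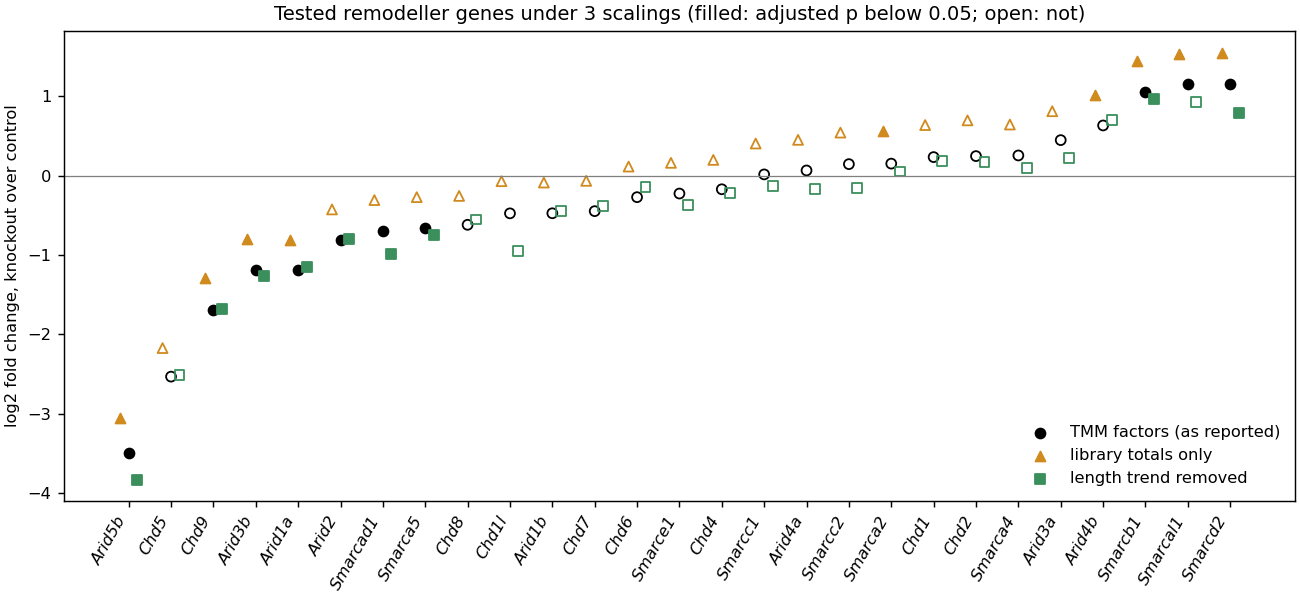
Log2 fold change of knockout over control for each tested remodeller gene (ordered from lowest to highest) with TMM factors, with library totals only and with a length trend removed; filled symbols passed an adjusted p of 0.05. Library totals moved every gene upwards, and Arid5b, Chd9, Arid3b and Arid1a stayed filled below 0 under all 3.

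Other subunits and relatives of the remodellers were read from 5 lists of 86 symbols, of which 84 matched and 76 were tested. In all, 11 rose and 12 fell (30.3% called), against 25.8% of all tested genes. Of the ISWI partners, which include the large reader subunits of SMARCA5 complexes, 0 of 8 rose and 4 fell, with a median log2 fold change of -0.63. Among all tested genes 13.6% rose and 12.2% fell, with a median of 0.10. The count of ISWI rises was also 0 at an unadjusted p under 0.05 in edgeR, and at an adjusted p under 0.05 in DESeq2 and in voom. The ISWI partners are long, with a median exon length of 11714.5 bases against 3580 bases for all tested genes. Cecr2, a bromodomain partner of the ISWI motors, was at 511 ± 84.5 CPM in knockout and 1088 ± 43.9 CPM in control oocytes (SD, n = 4), and the log2 fold change was -1.09 ± 0.16 (SE, adjusted p = 0.000641). Bptf, the reader of methylated lysine 4 of histone H3 in the NURF complex, was at 341 ± 12.7 CPM in knockout and 519 ± 31.7 CPM in control oocytes (log2 fold change -0.61, adjusted p = 0.00782). Pole3 and Rsf1, histone-fold and remodelling-factor partners of SMARCA5, had log2 fold changes of -0.65 and -1.30. The motor Smarca5 itself and 4 of its 8 tested partners passed with a fall, though the calls of Bptf, Pole3 and Rsf1 were lost with library totals only, and that of Rsf1 also without knockout replicate 1, knockout replicate 2 or control replicate 3 (adjusted p for Rsf1 of 0.00152 to 0.0671).

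Of 14 tested BAF partners, 2 rose, 3 fell and 9 did not pass (35.7% called). For all tested genes the share called was 25.8%, with 13.6% higher and 12.2% lower. Ss18, a subunit of canonical BAF complexes known from the fusion gene of synovial sarcoma, was at 158 ± 22.7 CPM in knockout and 316 ± 16.9 CPM in control oocytes (log2 fold change -0.996 ± 0.157, adjusted p = 0.00112). Bicral, a subunit of the non-canonical BAF complex, had a log2 fold change of -2.44 ± 0.51. Actl6a, the actin-related subunit BAF53A, was at 36.9 ± 2.12 CPM in knockout and 13.1 ± 3.58 CPM in control oocytes (1.496 ± 0.273 on the log2 scale, adjusted p = 0.00251). Dpf2, the histone reader subunit BAF45D, had a log2 fold change of 2.38 ± 0.53, and the PBAF subunit gene Brd7 was the third to fall. Among the subunits of these complexes that passed the test, Arid1a, Arid2, Ss18, Bicral and Brd7 fell, and Smarcb1, Smarcd2, Actl6a and Dpf2 rose.

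Of 11 tested NuRD partners, 2 rose and 1 fell (27.3% called), a share near the 25.8% of all tested genes. Mta1 and Hdac1, a scaffold and a histone deacetylase of that complex, had log2 fold changes of 1.88 ± 0.44 and 4.57 ± 1.09, the second with only 11 counts in the control libraries together. Gatad2a had a log2 fold change of -0.70 ± 0.20, and Rbbp7, the histone-binding subunit, was at 1737 CPM in knockout and 2288 CPM in control oocytes and did not pass (-0.40, adjusted p = 0.0825). Rbbp7 passed in DESeq2 (adjusted p = 0.0307), in voom (0.0392) and with the length trend removed (0.00689), in a range up to 0.990. The call of Gatad2a was lost without knockout replicate 1 or 2 or control replicate 1 or 4. It was also lost with library totals only (adjusted p = 0.188, the highest of a range that began at 0.00336). Of 30 tested INO80, SRCAP and TIP60-p400 subunits, 6 rose and 2 fell (26.7% called), also near that share. Mrgbp, a subunit of the TIP60-p400 complex, was at 91.3 ± 15.4 CPM in knockout and 12.5 ± 3.37 CPM in control oocytes (2.86 ± 0.26 on the log2 scale, adjusted p = 4.23e-05). Its partners Morf4l2 and Mbtd1 had log2 fold changes of -1.43 ± 0.16 and -0.83 ± 0.16, and Actr8, an actin-related INO80 subunit, 1.13 ± 0.28, a call that was lost with the length trend removed (0.56, adjusted p = 0.144, in a range that began at 0.00134). Of 13 other SNF2-type motors 23.1% were called, and Hltf rose (1.80 ± 0.49) and Shprh and Btaf1 fell (-0.93 ± 0.17 and -0.62 ± 0.16). Hells did not pass as reported (-0.65, adjusted p = 0.0503). It did pass in DESeq2 (adjusted p = 0.0169), in voom (0.0367), with median-of-ratios size factors (0.0439) and with the length trend removed (0.0385). Among the left-out libraries, Hells passed without knockout replicate 3 or control replicate 2 (range 0.0169 to 0.364 over its alternatives). The call of Hltf was lost without knockout replicate 3 (adjusted p = 0.0609, the highest of a range that began at 0.00183). That of Btaf1 was lost without knockout replicate 2 and with library totals only (adjusted p = 0.370 with totals, the highest of a range that began at 0.000496).

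**Figure D5:**
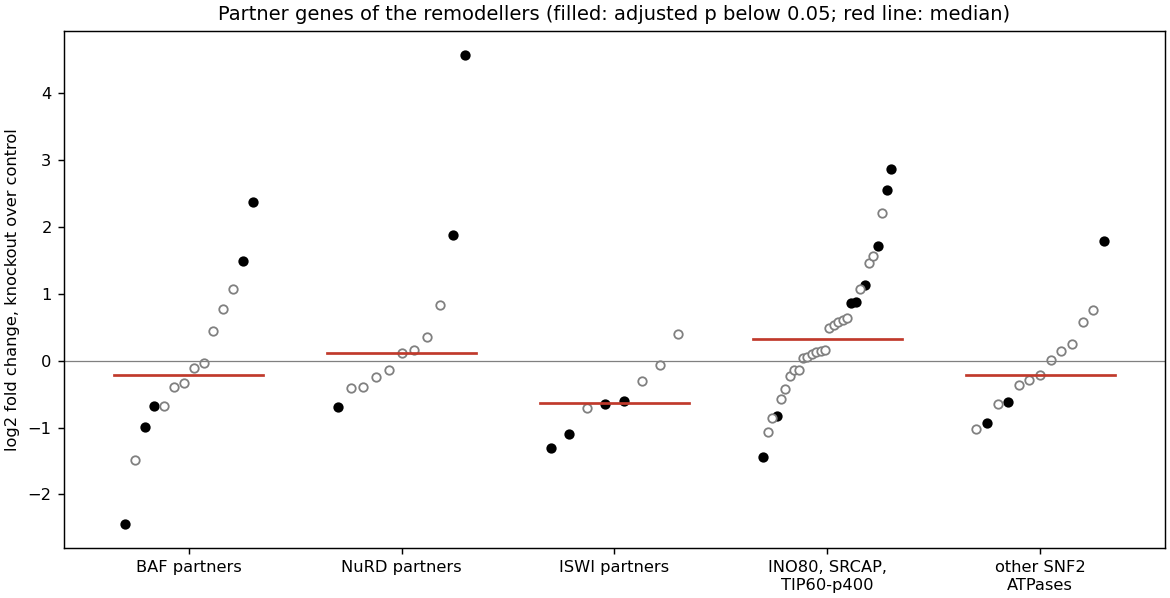
Log2 fold change of knockout over control for the 76 tested partner genes in 5 lists; filled points passed an adjusted p of 0.05 and red lines are medians. The ISWI partners had the lowest median, at -0.63, and the INO80, SRCAP and TIP60-p400 subunits the highest, at 0.32. Median exon length was 11714.5 bases in the first and 3317 bases in the second of these lists. The part of gene length in this contrast was not tested.

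The authors' deposited table listed 8 of the 33 genes, all with an adjusted p below its largest value of 0.009996. They were Arid5b, Chd9, Arid3b, Arid1a, Arid2 and Smarca5 with negative and Smarcb1 and Smarcd2 with positive fold changes. Smarcad1 and Smarcal1, the 2 other genes that passed here, were not among them. The threshold here was looser, at 0.05, and their adjusted p in edgeR was 0.0438 and 0.0436. Smarca5 and Smarcd2, which the deposited table lists, were also above 0.01 in edgeR (adjusted p = 0.0146 and 0.0123).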

How the data were processed

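Per the labels' protocols, RNA of single oocytes was amplified using a SMARTer Ultra Low kit and sequenced as 75-bp single reads; no molecular identifiers are named there, so counts are of reads. Per the submitters' processing notes, GSNAP, featureCounts 1.4.4, DESeq2 1.3.79 and build mm10 were used. Per the file headers, the deposited counts per gene are featureCounts output for Ensembl 69 genes, where a read needed mapping quality 1 or more, strand was ignored and multiply mapped reads were not requested. The authors' deposited comparison holds log2 fold changes, p-values, the standard error as a score, a normalized signal and RPKM values. The deposited signal equalled counts over 1 size factor per library to within 0.168, and the deposited RPKM were recomputed to within 0.05.

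Counts were tested with edgeR 4.0.16 under R 4.3.3, using TMM factors, filterByExpr, genotype alone in the model and the quasi-likelihood F test, with Benjamini-Hochberg adjustment over 11066 genes and a threshold of 0.05. The SE is the size of the log2 fold change over the square root of F. Other tools were DESeq2 1.42.0, limma 3.58.1 and Python 3.11.15. The fit was tested on simulated counts. Symbols matched 35449 identifiers in a name table and 10 in the deposited comparison, and 1765 stayed unnamed. Replicate pairs differed by far more than sampling noise (chi-square per degree of freedom from 36.3), so each library counted once. The 33 genes, the lists and the alternatives were chosen with earlier results of these data known. Every member with a count is named, and of each partner list the 4 tested genes of smallest p; Brd7 was named after its value was seen. Alternatives were other size factors, library totals only, a loess length trend removed (span 0.5), no filter, 10 CPM in 4 libraries, DESeq2, voom with quality weights, replicate number as a block, thinning to 9488899 counts, each library left out, an adjusted p of 0.01 and a 2-fold minimum.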

Additional observations from a re-analysis of the deposited data

Results flagged for a closer look

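In 6 of 112 groups of 4 values a library stood apart by Dixon's ratio (its gap to the nearest value over the whole range of the group, above the critical value at 95%), and chance gives about 1 in 20. Arid2 had 1 high control library, replicate 3 at 514 CPM beside 391 to 399 CPM (ratio 0.932). Arid3a had a high control replicate 2, at 10.2 CPM beside 2.75 to 3.79 CPM (ratio 0.861). Chd1l had a high knockout replicate 1, at 7.57 CPM beside 2.51 to 3.09 CPM (ratio 0.886), and Chd5 a high knockout replicate 2, at 1.21 CPM with 0.0898 CPM as the next value (ratio 0.926). Actr8 had a high knockout replicate 4, at 38.5 CPM beside 29.99 to 30.9 CPM (ratio 0.895). The share of Smarca5 in its pair with Smarca1 was 99.7% in control replicate 2 and 100% in the other control libraries (ratio 1).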

How the results depend on the processing

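Across the 17 alternative fits, 6 of the 10 remodeller genes that passed the test did so in every fit (Arid1a, Arid3b, Arid5b, Chd9, Smarcb1 and Smarcd2), none of the 10 changed sign, and 6 of the tested genes that had not passed did so in at least 1 fit. With library totals only, 2377 of all tested genes were higher and 510 lower, 0 SMARC genes were lower, 1 ARID gene (Arid4b) was higher and 6 partner genes were lower. With the length trend removed, 2331 of all genes and 21 partner genes were lower. With voom, 2 CHD genes were lower. At an adjusted p of 0.01, 747 of all genes were higher and 644 lower, 1 SMARC gene was higher and 0 lower, and 5 partner genes were higher. With a 2-fold minimum, 623 of all genes, 0 SMARC genes and 4 partner genes were lower.

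With each library left out in turn, 1012 to 1597 of all genes were higher and 837 to 1244 lower, the lowest of both without knockout replicate 2. The ranges were 2 to 3 higher and 0 to 2 lower for SMARC genes, 4 to 5 lower for ARID genes, 1 to 2 lower for CHD genes, and 8 to 11 higher and 8 to 13 lower for partner genes. With the replicate number as a block, 1090 of all genes were higher and 861 lower and 1 SMARC gene was lower. The calls of Setd1b (adjusted p = 0.0700), Smarcad1 (0.0634), Smarcal1 (0.0789), Bptf (0.0502), Btaf1 (0.06995) and Gatad2a (0.0638) were lost under the block. Same-numbered libraries did not deviate together (correlations of -0.117 to -0.0212), and 0 of 4 correlated best with their own number, so the numbers were not taken to pair the libraries.

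Signs turned in 8 genes that had not passed. The log2 fold change was 0.20 for Chd4, 0.12 for Chd6 and 0.16 for Smarce1 with library totals only, and -0.17 for Arid4a, -0.13 for Smarcc1 and -0.16 for Smarcc2 with the length trend removed. Smarcc1 was also at -0.021 with median-of-ratios size factors, -0.021 in DESeq2, -0.11 in voom and -0.038 with the replicate block. With 1 library left out, the value ran from -0.18 to 0.18 for Smarcc1, from -0.0569 to 0.183 for Arid4a, from -0.0165 to 0.379 for Chd1, from -0.15 to 1.05 for Chd2 and from -0.0671 to 0.676 for Smarcc2. Where no value above shows it, the cause was not tested. Few reads stood behind Smarcc2, Chd2, Chd1l and Chd5, which had 97, 210, 198 and 17 counts over the knockout libraries and 78, 152, 243 and 90 over the control libraries.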
